A study of Homo sapiens with 6 samples.

Results

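The chemokine genes CCL5, CCL20, CXCL1, CXCL8, CXCL10 and CXCL11 and the acute phase gene SAA1 were measured in T24, a human cell line long established from a bladder carcinoma, after knockdown of BLACAT3, a transcript of the long noncoding RNA gene LINC01535. The knockdown group (shBLACAT3, 3 libraries, replicates 1 to 3) carried a lentiviral short hairpin RNA against BLACAT3, and the control group (shControl, 3 libraries, replicates 1 to 3) a lentiviral control hairpin. Both lines were selected with puromycin and kept in RPMI medium with serum and antibiotics, and the labels give the genotype of the control cells as WT. The labels name 1 line per group and do not say whether a line was a clone or how many hairpin sequences were used, so a feature of a line and an effect of the knockdown cannot be told apart. They also do not say whether replicates were separate cultures, so the p-values below rest on the spread among 3 libraries a group, part or all of which may be technical. The 7 genes, of 11079 with a value, were CCL5 (ENSG00000271503), CCL20 (ENSG00000115009), CXCL1 (ENSG00000163739), CXCL8 (ENSG00000169429), CXCL10 (ENSG00000169245), CXCL11 (ENSG00000169248) and SAA1 (ENSG00000173432). They were selected on their log2 fold changes in this same comparison, 5 being lower and 2 higher in shBLACAT3 cells, so their differences are given as a description and without a test.

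Chemokines are small secreted proteins that bind to proteoglycans on cells and matrix and draw leukocytes up a gradient through G protein-coupled receptors. CCL5 draws T cells, monocytes and eosinophils, and CXCL10 and CXCL11 draw activated T cells and natural killer cells through CXCR3. CCL20 acts through CCR6 on immature dendritic cells and Th17 cells, while CXCL1 and CXCL8 (interleukin 8) act through CXCR2 on neutrophils, and CXCL8 through CXCR1 as well. SAA1 encodes serum amyloid A, an apolipoprotein made mainly by the liver during inflammation and also by some epithelia and tumours. The promoters of CXCL1, CXCL8 and CCL20 are textbook targets of NF-kB, those of CXCL10 and CXCL11 of interferon-activated factors together with NF-kB, and that of CCL5 of NF-kB and interferon regulatory factors.

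The stretch of 250 bases upstream of the annotated start is shown for members that differed in opposite ways and for CXCL2, the neighbour of CXCL1, because the CXCL genes shown all lie on chromosome 4 and some share promoter letters. Of the 7 members, 5 had an entry in the RefSeq table of promoters (GRCh38.p14). CCL5 and SAA1 were not matched. The files' own build is not given in the sources used here, and these coordinates refer to the RefSeq table only. Capitals mark a kappaB-type motif GGAANTTCC (searched on both strands), an interferon-type motif made of GAAA, any 2 bases and GAAA (both strands), an AP-1-type motif TGANTCA (both strands) and TATAAA (gene strand), and no 2 of these overlapped. The stretches were, on the plus strand, CXCL1 at chr4:73869143-73869392, CXCL8 at chr4:73740319-73740568 and CCL20 at chr2:227813592-227813841, and on the minus strand CXCL2 at chr4:74099196-74099445, CXCL10 at chr4:76023498-76023747 and CXCL11 at chr4:76036071-76036320.
CXCL1: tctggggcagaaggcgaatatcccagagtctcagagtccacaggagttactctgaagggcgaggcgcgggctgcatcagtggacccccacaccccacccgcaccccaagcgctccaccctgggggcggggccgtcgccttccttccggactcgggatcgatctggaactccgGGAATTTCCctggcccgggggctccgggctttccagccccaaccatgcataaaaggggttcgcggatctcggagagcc
CXCL2: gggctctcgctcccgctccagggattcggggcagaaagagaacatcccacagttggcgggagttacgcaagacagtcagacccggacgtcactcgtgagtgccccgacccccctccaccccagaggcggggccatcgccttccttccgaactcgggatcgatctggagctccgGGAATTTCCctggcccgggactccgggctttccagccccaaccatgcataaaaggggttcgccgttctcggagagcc
CXCL8: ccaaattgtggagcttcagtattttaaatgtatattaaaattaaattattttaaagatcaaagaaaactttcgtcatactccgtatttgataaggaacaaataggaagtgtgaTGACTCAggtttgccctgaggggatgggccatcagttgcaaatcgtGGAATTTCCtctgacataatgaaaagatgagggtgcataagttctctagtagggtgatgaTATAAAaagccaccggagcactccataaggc
CCL20: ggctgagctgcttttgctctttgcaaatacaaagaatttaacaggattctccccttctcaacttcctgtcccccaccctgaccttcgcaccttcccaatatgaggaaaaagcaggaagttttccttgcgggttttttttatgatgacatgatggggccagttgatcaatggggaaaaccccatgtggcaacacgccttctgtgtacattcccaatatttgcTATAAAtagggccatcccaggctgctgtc
CXCL10: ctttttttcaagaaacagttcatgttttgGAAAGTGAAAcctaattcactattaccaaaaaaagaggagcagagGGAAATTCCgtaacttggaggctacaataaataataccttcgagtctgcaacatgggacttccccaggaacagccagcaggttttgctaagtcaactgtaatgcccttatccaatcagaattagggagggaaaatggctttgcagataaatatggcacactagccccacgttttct
CXCL11: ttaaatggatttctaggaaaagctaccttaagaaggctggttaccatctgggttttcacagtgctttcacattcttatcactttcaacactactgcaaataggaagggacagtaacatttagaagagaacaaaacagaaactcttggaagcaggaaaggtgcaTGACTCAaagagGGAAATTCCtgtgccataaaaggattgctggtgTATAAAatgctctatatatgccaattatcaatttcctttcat

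The kappaB-type motif stood in 4 of these 5 member promoters, in CXCL1 with its first base 78 bases upstream of the start, in CXCL8 at 91, in CXCL10 at 176 and in CXCL11 at 75. It stood in 0.826% of all 35116 promoters in the table over the same length. Only this narrow pattern was searched, so a stretch without it, such as that of CCL20, may still hold a kappaB site of another form. CXCL1 and CXCL8, which differed in opposite ways, held the same 9 letters, GGAATTTCC, and so did CXCL2 and CXCL3. CXCL10 and CXCL11 held GGAAATTCC. The interferon-type motif was found in CXCL10, 221 bases upstream, and in 3.02% of all promoters. The AP-1-type motif (6.57% of all promoters) was found in CXCL8 at 137 and CXCL11 at 87 bases upstream, and TATAAA (6.80%) in CCL20, CXCL8 and CXCL11. In a global alignment the CXCL1 stretch was 68.0% identical to that of CXCL2 and 81.4% to that of CXCL3, against 42.8% to that of CXCL8. These matches describe letters and say nothing on whether a factor bound there.

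Levels below are FPKM, fragments per kilobase of transcript scaled to library size, and log2 fold changes are differences of log2(FPKM + 1), shBLACAT3 minus shControl, with their standard error (SE) from limma's fit to the 10008 genes whose mean over the 6 libraries reached 1 FPKM. Adding 1 makes the change of weakly expressed genes look smaller than it is. Over all tested genes the median log2 fold change was -0.0025. The number of reads behind the values is unknown, as FPKM holds no counts, and the column totals ran from 211958 to 226953 in shBLACAT3 and from 220543 to 225122 in shControl libraries. In the shBLACAT3 libraries 43 to 65 genes were listed at 0, and in the shControl libraries 17 to 19. None of these genes reached 10 FPKM in another library of its group. The targeted RNA was not analysed here, so the group labels were not checked against it. Epithelial keratins were measured in both groups, with KRT18 at 74.2 ± 5.19 FPKM in shBLACAT3 and 112 ± 15.0 in shControl libraries (SD, n = 3 each). The 5 analysed genes of 19 urothelial and epithelial markers summed to 124 to 142 FPKM in shBLACAT3 and to 180 to 211 in shControl libraries, and 2 of them, KRT8 and KRT18, passed the test as lower, KRT18 in only 2 of the 6 fits that left out 1 library (lost without shBLACAT3 replicate 1 or 2 or shControl replicate 1 or 3). KRT7, another keratin of the list, was higher at 31.8, 28.6 and 35.5 FPKM in shBLACAT3, against 24.2, 22.2 and 13.6 FPKM in shControl libraries, without passing the test (log2 fold change 0.69, SE 0.21, limma adjusted p 0.097). PPARG, a urothelial transcription factor, stood at 4.71 ± 0.31 FPKM in shBLACAT3 and 3.77 ± 0.43 in shControl libraries, and FOXA1, another, at 1.88 ± 0.10 in shBLACAT3 and 2.53 ± 0.29 in shControl libraries (SD, n = 3 each), and neither passed. Uroplakins, which define differentiated urothelium, were not analysed here. Whether this shift has a part in the results below was not tested. In bulk RNA, fewer cells of a type and less RNA per cell cannot be told apart.

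All 7 genes passed the filter on low values, and the groups overlapped in 0 of the 7. Among all tested genes the groups did not overlap in 32.8%, lower in shBLACAT3 in 18.6% and higher in 14.1%. Because this comparison also chose the 7 genes, nothing follows from their count. CCL5, CXCL10 and CXCL11 passed the filter through their shControl levels alone. The median log2 fold change of the 7 genes was -1.52. The plot of values by library shows the 3 patterns among them: near absence, a partial difference and a higher level in the knockdown.

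**Figure D1:**
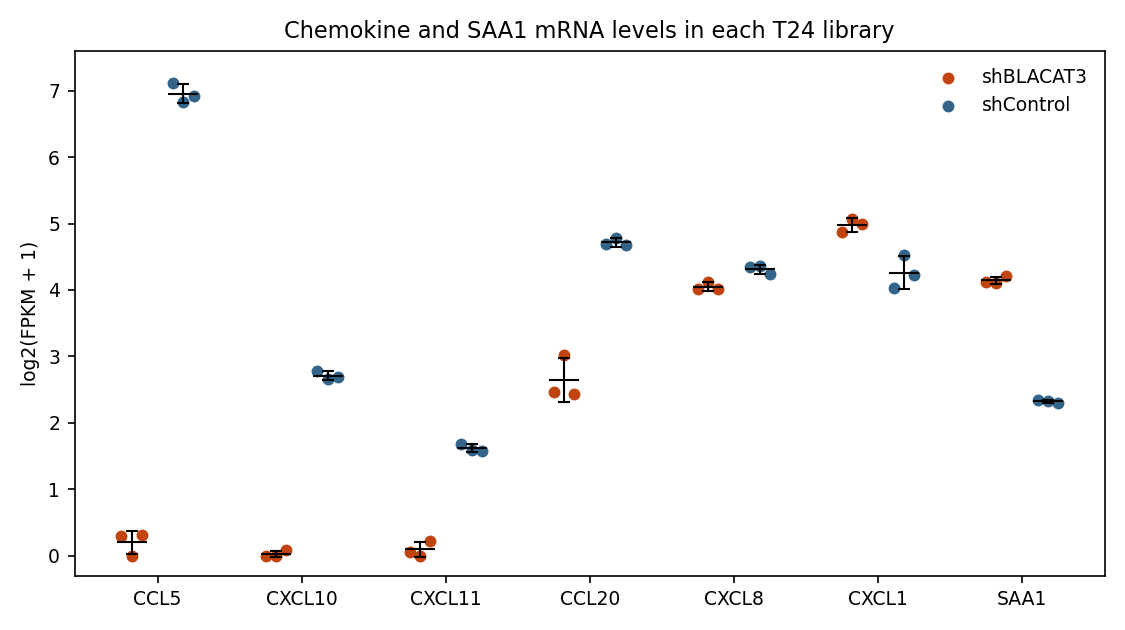
Points give log2(FPKM + 1) of each library for the 7 genes, with shBLACAT3 left of shControl, and bars give the mean ± SD of 3 libraries. CCL5, CXCL10 and CXCL11 lie near 0 in shBLACAT3 libraries, CCL20 and CXCL8 lie below their shControl libraries, and CXCL1 and SAA1 lie above them.

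The lymphocyte-attracting chemokines CCL5, CXCL10 and CXCL11 were nearly absent from shBLACAT3 cells. CCL5 stood at 0.226, 0 and 0.239 FPKM in shBLACAT3 replicates 1, 2 and 3, against 137, 113 and 121 FPKM in shControl replicates 1, 2 and 3. In shControl cells its mean level exceeded that of 98.0% of all tested genes, and in shBLACAT3 cells that of 0.22%. Its log2 fold change of -6.75 (SE 0.12) was the lowest of the 10008 and ran from -6.82 to -6.65 over the 6 fits that each left out 1 library.

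CXCL10 was listed at 0, 0 and 0.0613 FPKM in the shBLACAT3 libraries, against 5.87, 5.30 and 5.48 FPKM in the shControl libraries. CXCL11 stood at 0.0403, 0 and 0.168 FPKM in the shBLACAT3 libraries, against 2.21, 2.01 and 1.98 FPKM in the shControl libraries. Both were thus measured well above 0 in every shControl library and at or near 0 in every shBLACAT3 library. The log2 fold changes were -2.68 (SE 0.08) for CXCL10, 15th from the lowest of all tested genes, and -1.52 (SE 0.09) for CXCL11, 48th from the lowest. CXCL11 had a mean of 1.07 FPKM over the 6 libraries and was under the filter when any shControl library was left out. In shControl cells the level of CXCL10 was 2.64 to 2.77 times that of CXCL11 in each of the 3 libraries.

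Leukocytes are a known source of CCL5, and 2 of 16 leukocyte markers, CD68 and LAPTM5, had values in these cells. They summed to 0.370 to 1.005 FPKM in shBLACAT3 and 1.83 to 3.06 FPKM in shControl libraries, and 0 of the 2 reached a mean of 1 FPKM. Both were listed through their shControl levels alone, so they had to be lower in shBLACAT3 libraries. The defining markers PTPRC, CD3D and CD3E were not analysed here, nor was any of 8 endothelial markers. The part of these leukocyte markers in the CCL5 result was not tested.

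CCL20 kept a lower but clear level. It stood at 4.53, 7.11 and 4.41 FPKM in shBLACAT3 replicates 1, 2 and 3, against 24.7, 26.6 and 24.5 FPKM in shControl replicates 1, 2 and 3. The log2 fold change was -2.07 (SE 0.16), or 0.212 of the shControl mean in FPKM. shBLACAT3 replicate 2 was the highest of its group, and without it the log2 fold change was -2.26. The coefficient of variation was 28.5% in shBLACAT3 and 4.43% in shControl libraries.

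The neutrophil-attracting chemokines CXCL8 and CXCL1, whose genes lie in the same cluster on chromosome 4, differed in opposite ways. CXCL8 stood at 15.1, 16.4 and 15.2 FPKM in the shBLACAT3 libraries, against 19.2, 19.5 and 17.8 FPKM in the shControl libraries. The highest shBLACAT3 value lay under the lowest shControl value, but the log2 fold change of -0.26 (SE 0.07) was the smallest of the 7. CXCL1 stood at 28.2, 32.5 and 30.9 FPKM in the shBLACAT3 libraries, against 15.3, 22.02 and 17.6 FPKM in the shControl libraries. Its log2 fold change was 0.72 (SE 0.13), or 1.67 times the shControl mean in FPKM, and it ranked 75th from the highest. It ran from 0.60 to 0.85 when 1 library was left out, the lowest without shControl replicate 1 and the highest without shControl replicate 2.

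Within each library the level of CXCL1 was 1.87, 1.98 and 2.03 times that of CXCL8 in shBLACAT3 replicates 1, 2 and 3, against 0.796, 1.13 and 0.990 times in shControl replicates 1, 2 and 3. CXCL2, a close paralog of CXCL1 that also acts on neutrophils, stood at 5.48, 4.27 and 4.79 FPKM in shBLACAT3, against 5.44, 5.36 and 4.75 FPKM in shControl libraries, with a log2 fold change of -0.08 (SE 0.10, limma adjusted p 0.64). CXCL1 was thus 5.15, 7.61 and 6.44 times CXCL2 in the shBLACAT3 libraries, against 2.81, 4.11 and 3.71 times in the shControl libraries. As CXCL1 was selected on this comparison, nothing follows from the direction of this ratio or of that to CXCL8. CXCL3, the third of these paralogs, lay under the filter at 0.677 to 0.970 FPKM in shBLACAT3 and 0.764 to 1.16 FPKM in shControl libraries. The 3 paralogs are similar in sequence, so the split of shared fragments among them is uncertain.

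SAA1 was the second highest of all tested genes by log2 fold change. It stood at 16.5, 16.2 and 17.4 FPKM in shBLACAT3 replicates 1, 2 and 3, against 4.09, 4.02 and 3.90 FPKM in shControl replicates 1, 2 and 3. The libraries of a group lay close together, with coefficients of variation of 3.73% in shBLACAT3 and 2.37% in shControl libraries, the lowest of the 7 genes in each group. The log2 fold change was 1.82 (SE 0.07), or 4.17 times the shControl mean, and ran from 1.79 to 1.84 when 1 library was left out. SAA2, the near-identical neighbour of SAA1, was not analysed here, and fragments of both genes may be counted in the SAA1 value.

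**Figure D2:**
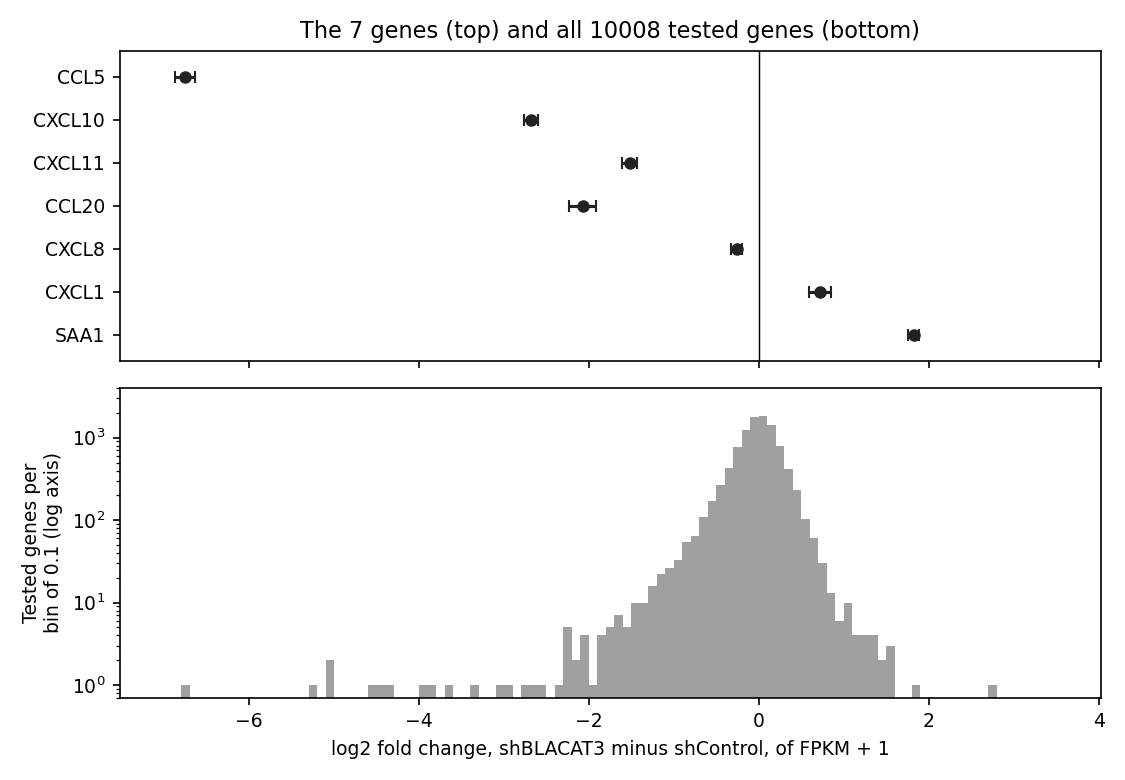
The top panel gives the log2 fold change ± SE of the 7 genes and the bottom panel counts all 10008 tested genes per bin of 0.1 on a log axis. CCL5 at -6.75 is the lowest gene of all, SAA1 at 1.82 the second highest, and CXCL8 at -0.26 lies within the main body of the distribution.

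The order of the 7 genes by level changed between the groups. In shBLACAT3 cells CXCL1 came first at 30.5 ± 2.16 FPKM (SD, n = 3), followed by SAA1 at 16.7 ± 0.62 and CXCL8 at 15.6 ± 0.74, whose libraries overlapped, then by CCL20 at 5.35 ± 1.52, while CCL5, CXCL11 and CXCL10 lay at or under 0.239 FPKM with overlapping libraries. In shControl cells CCL5 came first at 123 ± 12.4 FPKM, followed by CCL20 at 25.3 ± 1.12, then by CXCL8 at 18.8 ± 0.90 and CXCL1 at 18.3 ± 3.40, whose libraries overlapped, and by CXCL10 at 5.55 ± 0.29, SAA1 at 4.004 ± 0.09 and CXCL11 at 2.07 ± 0.13. The summed level of the 11 chemokine genes with a value was 57.0, 63.5 and 59.6 FPKM in shBLACAT3 libraries, against 219, 203 and 202 FPKM in shControl libraries. CCL5 made up 0 to 0.401% of this sum in shBLACAT3 and 55.7 to 62.7% in shControl libraries. CXCL1 and CXCL8 together made up 76.0 to 77.3% in shBLACAT3 and 15.8 to 20.5% in shControl libraries. Without CCL5, the sum was 56.8 to 63.5 FPKM in shBLACAT3 and 81.6 to 89.9 FPKM in shControl libraries.

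**Figure D3:**
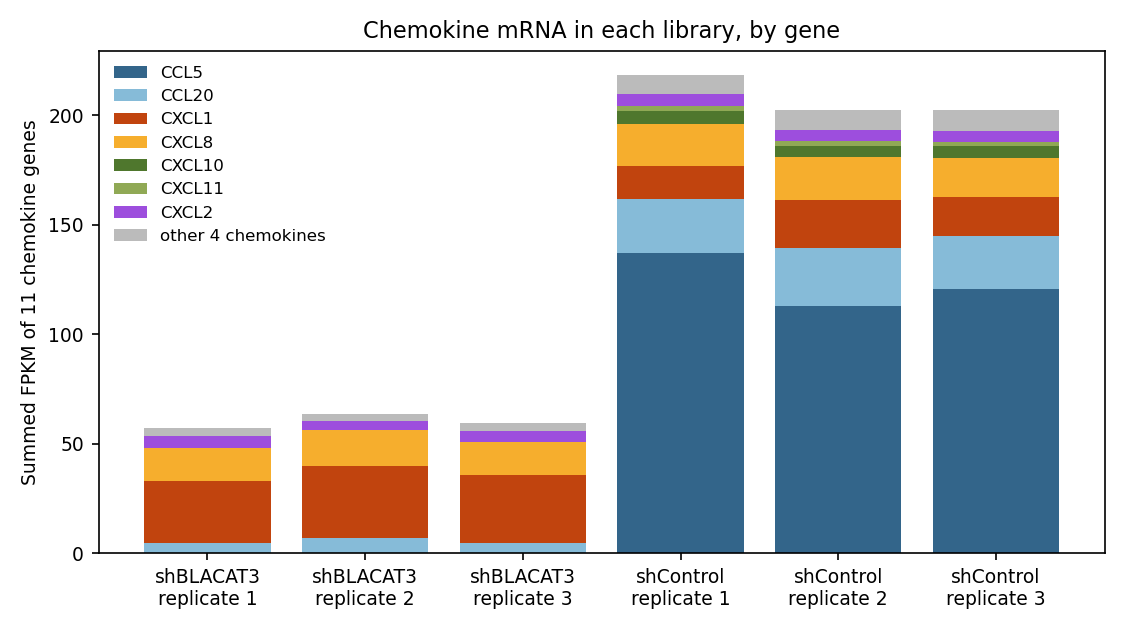
Bars stack the FPKM of 11 chemokine genes in each library, with shBLACAT3 libraries left of shControl libraries. The sum is 57.0 to 63.5 FPKM in shBLACAT3 libraries, most of it CXCL1 and CXCL8, and 202 to 219 FPKM in shControl libraries, most of it CCL5.

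In the lists that follow, a gene rose or fell where its limma adjusted p was under 0.05, which held for 9.37% of all tested genes, 6.8% as lower and 2.57% as higher in shBLACAT3 cells. Of 37 other chemokine genes 5 had a value and 2, CXCL2 and CXCL16, passed the filter, with a median log2 fold change of -0.50. CXCL16, a membrane-bound chemokine that is shed to attract T cells through CXCR6, fell to 2.49, 2.19 and 3.17 FPKM in the shBLACAT3 libraries, against 5.89, 5.50 and 5.89 FPKM in the shControl libraries (log2 fold change -0.91, SE 0.11, limma adjusted p 0.0050). CCL3 and CX3CL1 lay under the filter and are named here after their values were seen. Every listed gene had a group mean of at least 0.5 FPKM, which CCL3 and CX3CL1 reached in shControl libraries only. They therefore had to be lower in shBLACAT3 libraries, and nothing follows from their direction. CCL3 was listed at 0 in all 3 shBLACAT3 libraries, against 1.25, 1.61 and 2.07 FPKM in the shControl libraries, and CX3CL1 stood at 0.0255, 0.0207 and 0.0269 FPKM in shBLACAT3, against 0.926, 0.874 and 0.757 FPKM in shControl libraries. CCL3 has near-identical copies, so its value is uncertain. Of 23 chemokine receptor genes, 0 could be tested.

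The 3 tested genes with the profile most like each member were found by the root mean square difference, over the 6 libraries, of log2(FPKM + 1) minus the gene's own shControl mean. Near 0 FPKM the added 1 sets this measure, so a small distance does not show that 2 genes differed by a like ratio of FPKM. Where the libraries of a group lie close together, the measure mostly follows the log2 fold change, on which the members were selected. A shared function or regulation therefore does not follow from it. For CCL5 they were OASL, IFIT1 and IFIT2, antiviral genes induced by interferon, at distances of 1.07, 1.21 and 1.22. Their log2 fold changes were -5.25, -5.06 and -5.04, and no other gene had as low a log2 fold change as CCL5. For CXCL10 they were HLA-B, a class I antigen-presenting chain (0.095), HERC5, a ligase for ISG15 (0.13), and IFNL1, a type III interferon (0.19). IFNL1 was listed at 0 in all 3 shBLACAT3 libraries and averaged 6.61 ± 0.55 FPKM in shControl libraries (SD, n = 3). In FPKM, HLA-B averaged 12.6 ± 0.64 in shBLACAT3 and 80.2 ± 8.30 in shControl libraries (SD, n = 3 each), a smaller ratio than that of CXCL10, which was at or near 0 in shBLACAT3 libraries. For CXCL11 they were UBE2L6, a conjugating enzyme for ISG15 (0.051), ETS2, a transcription factor (0.060), and IGFBP3, which binds insulin-like growth factors (0.091). UBE2L6 averaged 6.40 ± 0.39 FPKM in shBLACAT3 and 20.9 ± 1.21 in shControl libraries and ETS2 3.18 ± 0.18 in shBLACAT3 and 11.1 ± 0.28 in shControl libraries (SD, n = 3 each), again smaller ratios than that of CXCL11. OASL, IFIT1, IFNL1 and IGFBP3 passed the filter through their shControl levels alone, so they had to be lower in shBLACAT3 libraries.

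For CCL20 the nearest profiles were those of IFIH1, a sensor of double-stranded RNA (0.17), IL7R, a subunit of the interleukin 7 receptor (0.19), and PODXL, podocalyxin (0.19). IL7R averaged 0.0998 FPKM in shBLACAT3 and 4.09 FPKM in shControl libraries. By ratio of FPKM it was thus lowered more than CCL20, but it passed the filter through its shControl level alone, so it had to be lower. CXCL8 lay close to MBP (0.015), ZNF318 (0.024) and AMOT (0.024). CXCL1 lay nearest to AMIGO2, a cell adhesion protein (0.12), TRIB2, a pseudokinase (0.12), and PUM3, an RNA-binding protein (0.14). TRIB2 passed the filter through its shBLACAT3 level alone (shControl mean 0.957 FPKM), so it had to be higher. SAA1 lay nearest to PLOD3, a collagen lysyl hydroxylase (0.23), F11R, a junctional adhesion protein (0.24), and NOG, a BMP antagonist (0.27). None of the 21 was itself a member, so the members were not each other's nearest genes.

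The 3' untranslated regions of many cytokine mRNAs carry AU-rich pentamers that proteins such as ZFP36 bind to speed decay. In GENCODE 29 transcripts with the longest coding part, the pentamer ATTTA was found 9 times in CXCL8, 5 times in CXCL1 and 3 times in CCL20. Their densities of 7.17, 7.05 and 6.61 per kilobase exceeded those of 96.3%, 96.1% and 95.2% of 9630 tested genes with an annotated region of at least 50 bases, whose median was 1.75. CXCL10 and CXCL11 held 1 each (1.23 and 0.90 per kilobase), and CCL5 and SAA1 held 0. The annotated region of SAA1 was only 125 bases long, so few pentamers could lie in it. Whether this feature has a part in the differences was not tested.

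Among 22 secreted interleukins and growth cytokines, 11 were tested, 3 fell and 0 rose, with a median log2 fold change of -0.31. IL6, an inducer of SAA1 in liver, fell to 6.85, 4.81 and 6.67 FPKM in shBLACAT3, against 15.0, 14.7 and 15.8 FPKM in shControl libraries (log2 fold change -1.19, SE 0.13, limma adjusted p 0.0024). CSF2, which encodes GM-CSF, fell by 1.16 (SE 0.12, limma adjusted p 0.0021), and CSF1, a macrophage growth factor, by 0.89 (SE 0.09, limma adjusted p 0.0019). These 3 calls held in all 6 fits that left out 1 library.

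Among 25 other acute phase genes, 3 were tested, 2 fell and 0 rose, with a median log2 fold change of -0.43. SERPINA1, the antiprotease alpha-1 antitrypsin, fell to 0.0312, 0.0734 and 0.0482 FPKM in shBLACAT3, against 3.32, 3.07 and 1.92 FPKM in shControl libraries (log2 fold change -1.82, SE 0.15, limma adjusted p 0.00096). It passed the filter through its shControl level alone, so it had to differ if it was tested at all. TIMP1, an inhibitor of metalloproteases, fell by 0.43 (limma adjusted p 0.027), and this call was lost in the fits without shBLACAT3 replicate 1 or any shControl replicate (0.084 to 0.11). CFB, a complement factor under the filter and named after its values were seen, stood at 0, 0.0230 and 0 FPKM in shBLACAT3, against 2.14, 1.75 and 1.33 FPKM in shControl libraries. CFB was listed through its shControl level alone, so it had to be lower. Of 8 SAA receptor genes 2 were tested and 0 passed in limma (0 at an unadjusted p under 0.05), with SCARB1, a lipoprotein receptor, at 6.33 ± 1.05 FPKM in shBLACAT3 and 6.22 ± 0.36 in shControl libraries (SD, n = 3 each).

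Of 31 genes of interleukin 1, 6, 17 and TNF receptor signalling, 27 were tested, 4 fell and 1 rose, with a median of -0.11. MYD88, the adaptor of interleukin 1 and Toll-like receptors, rose to 7.62, 7.19 and 8.21 FPKM in shBLACAT3, against 3.28, 3.18 and 3.45 FPKM in shControl libraries (log2 fold change 1.01, SE 0.08, limma adjusted p 0.00075), and was called in all 6 fits that left out 1 library. The 4 that fell were SOCS3, a feedback inhibitor of STAT3, by 0.65, CEBPD, a transcription factor of acute phase genes, by 0.60, IRAK2, a mediator of interleukin 1 signalling, by 0.50 and OSMR, the oncostatin M receptor, by 0.49 (limma adjusted p from 0.0032 to 0.017). The calls of CEBPD and IRAK2 were lost without shControl replicate 1 or 3 (limma adjusted p 0.053 to 0.063).

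NF-kB subunits, inhibitors and kinases gave 17 tested genes of 18, of which 4 fell and 0 rose, with a median of -0.098. All 4 are inhibitors or modulators of NF-kB. The subunits RELA, RELB, NFKB1 and NFKB2 did not pass, nor did NFKBIB, NFKBIE, NFKBIZ, TNIP2 and CYLD. Their log2 fold changes ran from -0.28 to 0.17 (limma adjusted p 0.23 to 0.78). TNFAIP3, a ubiquitin-editing inhibitor, fell to 3.02, 2.70 and 2.996 FPKM in shBLACAT3, against 14.1, 12.5 and 13.5 FPKM in shControl libraries (log2 fold change -1.88, SE 0.08, limma adjusted p 5.0e-05). NFKBIA, the inhibitor that retains NF-kB in the cytoplasm, fell by 1.23, TNIP1, a partner of TNFAIP3, by 1.23, and BCL3, a nuclear cofactor, by 1.13 (limma adjusted p from 0.00039 to 0.0021). These 4 calls held in all 6 fits that left out 1 library.

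Of 20 interferon receptors, transcription factors and adaptors, 19 were tested, 3 fell and 0 rose, with a median of -0.22. IRF1, a factor that acts on the CXCL10 and CCL5 promoters, fell by 0.72 (SE 0.08, limma adjusted p 0.0040) to 3.02, 2.76 and 2.95 FPKM in shBLACAT3, against 5.96, 5.05 and 5.35 FPKM in shControl libraries. IFNLR1, the receptor of type III interferon, fell by 0.50 (limma adjusted p 0.031) and IRF7 by 0.48 (limma adjusted p 0.048). The call of IRF7 was lost whichever library was left out (limma adjusted p 0.055 to 0.16), and that of IFNLR1 without shBLACAT3 replicate 1 or 2 or shControl replicate 1 or 2 (0.075 to 0.094).

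All 19 genes of AU-rich mRNA decay were tested, 2 fell and 0 rose, with a median of -0.041. ZFP36, which promotes the decay of such mRNAs, fell by 0.78 (limma adjusted p 0.024), and ZC3H12A, an endonuclease of cytokine mRNAs, by 0.61 (limma adjusted p 0.018). The call of ZFP36 was lost in 5 of the 6 fits that left out 1 library, all but that without shBLACAT3 replicate 3 (limma adjusted p 0.065 to 0.090), and that of ZC3H12A without shControl replicate 1 or 2 (0.076 and 0.081).

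Proteoglycans that hold chemokines and peptidases that trim them gave 16 tested genes of 20, of which 3 fell and 2 rose, with a median of -0.30. SDC4, syndecan 4, fell to 44.8, 40.0 and 45.7 FPKM in shBLACAT3, against 121, 111 and 109 FPKM in shControl libraries (log2 fold change -1.37, SE 0.07, limma adjusted p 0.00015). The protease CTSL fell by 0.77 and SDC3 by 0.60 (limma adjusted p 0.0018 and 0.012), while the peptidase MME rose by 0.38 and the heparan sulfate polymerase EXT1 by 0.35 (limma adjusted p 0.048 and 0.042). The calls of MME and EXT1 were each lost in 5 of the 6 fits that left out 1 library, all but that without shBLACAT3 replicate 3 for MME and 2 for EXT1 (limma adjusted p 0.062 to 0.16), and that of SDC3 without shControl replicate 1 or 3 (0.052 and 0.062). DPP4, the peptidase that trims CXCL10, CXCL11 and CCL5, lay under the filter and is named after its values were seen. It stood at 0.383, 0.468 and 0.430 FPKM in shBLACAT3, against 1.33, 1.38 and 1.01 FPKM in shControl libraries. DPP4 was listed through its shControl level alone, so it had to be lower.

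**Figure D4:**
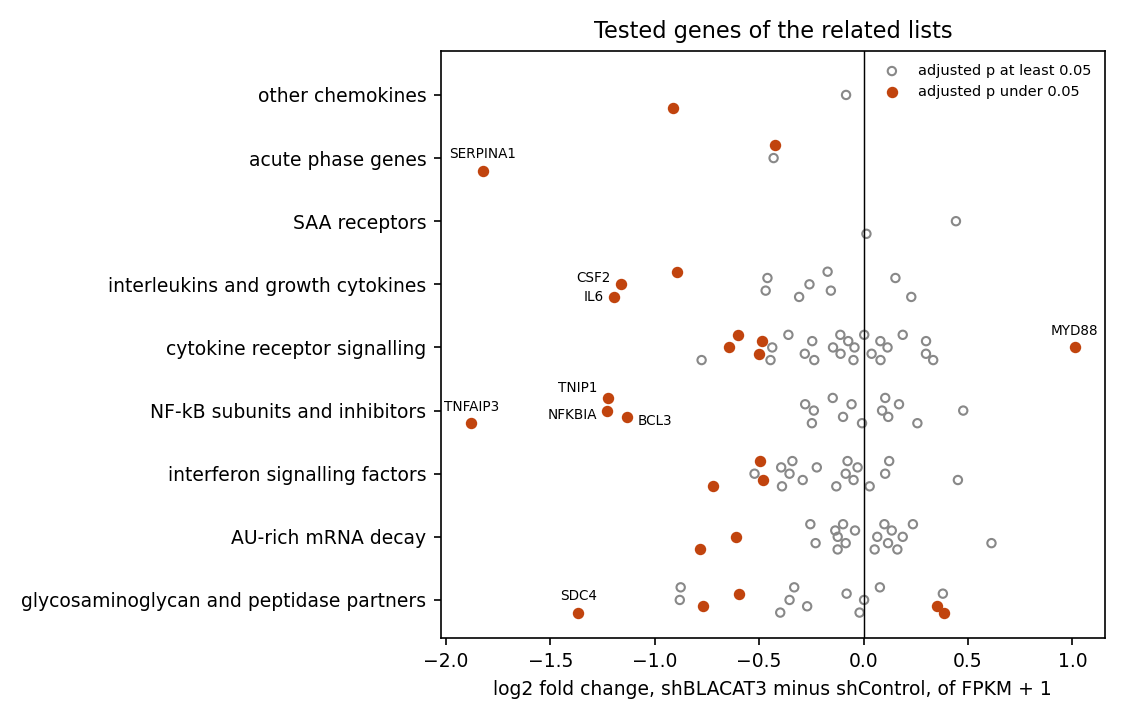
Each point is a tested gene of 9 related lists at its log2 fold change (shBLACAT3 minus shControl), filled where the adjusted p was under 0.05. Filled points lie left of 0 except MYD88 at 1.01 and the pair EXT1 and MME at 0.35 and 0.38, and TNFAIP3 and SERPINA1 lie farthest left.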

How the data were processed

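RNA-seq libraries of T24 cells (3 shBLACAT3, 3 shControl) were made from total RNA with a strand-aware kit, per the labels' protocols. Per the submitters' processing notes the tools were StringTie, HISAT2 2.1.0 and cutadapt, whose roles are not listed. Build, annotation and strand setting were not given in the sources used here. As its header names no unit, FPKM was inferred for the deposited table from the range of the values and from StringTie. Columns headed NC were read as shControl and SH as shBLACAT3, with the number as the replicate. In all 11081 rows the higher group mean was at least 0.5 FPKM, and genes below that in both groups were not analysed here.

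Identifiers without their version were matched to symbols through a table of current gene names (11007 rows), rows of a shared symbol were summed, and the genes whose mean reached 1 FPKM entered limma 3.58.1 (R 4.3.3) as log2(FPKM + 1), with these choices (group as the only term, trend, two-sided, Benjamini-Hochberg adjustment over 10008 genes, threshold 0.05). The test was checked on simulated data. The 7 genes, the 10 related lists and the marker lists were chosen with earlier results of these data known. Beside the 7 genes, genes were named where 6 or fewer of a list passed, or as the tested gene with the highest mean where 0 passed, as neighbours of a member, or as 1 of the 3 nearest profiles. Depth is unknown, so no counting interval is given. Figures were drawn with matplotlib 3.10.9.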

Additional observations from a re-analysis of the deposited data

How the results depend on the processing

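The direction of all 7 genes was the same under every other setting tried that gave a value. Most of these settings could not reverse it. The groups overlapped for none of the 7, so neither leaving out 1 library nor another pseudocount could do so. The block, the filters, the trend and robust moderation leave a log2 fold change as it is. With a pseudocount of 0.1 in place of 1 the log2 fold change was -9.11 for CCL5, -5.59 for CXCL10, -3.80 for CXCL11 and 2.03 for SAA1, and with quantile normalization it was -6.57, -2.55 and -1.31 for CCL5, CXCL10 and CXCL11. CXCL11 gave no value without any 1 shControl replicate.

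In all, 938 genes passed in limma, 257 higher and 681 lower. Leaving out 1 library gave 357 to 1339, the lowest without shControl replicate 1 and the highest without shBLACAT3 replicate 3. With the replicate number as a replicate block 612 passed. Same-numbered libraries had correlations of 0.1002, 0.117 and 0.0896 between their deviations from the group means, and every library correlated best with its own number. The labels do not say what a number shares, so the main fit did not pair the samples. The p-values in the sections above come from that unpaired fit. Under the block, the count of genes passing was 1 for the acute phase, 1 for the AU-rich decay and 3 for the proteoglycan and peptidase lists, and 2 for the interferon factors. Of the genes named in the text, TIMP1, ZFP36, EXT1, MME and IFNLR1 lost their call under the block (limma adjusted p 0.055 to 0.089).

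Without the filter, or at a mean of 0.1, 3 other chemokines and 6 acute phase genes passed, more genes being tested. The genes of these lists so added were listed through their shControl levels alone. With median scaling 1 acute phase gene passed. Leaving out 1 library gave 1 to 4 acute phase genes, 3 to 6 of receptor signalling, 1 to 3 interferon factors, 0 to 2 of AU-rich decay and 2 to 6 proteoglycan and peptidase genes. The depth behind low FPKM values is unknown, so a value near 0 cannot be told from 0 here.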
